A study of Homo sapiens with 28 samples.

Results

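The genes of the mTOR complexes and their closest regulators, MTOR, RPTOR, RICTOR, AKT1, AKT1S1, TSC1, TSC2, RHEB, EIF4EBP1 and RPS6KB1, were examined in residual xenograft tumors and in the cell cultures derived from them. These 10 genes were taken by symbol from a count table of 58278 genes, and each of the 10 passed the filter on low counts in every comparison. RNA sequencing was done on 28 libraries. HCT116 cells carrying a Luciferase-GFP reporter, an established human colorectal carcinoma line, had been grown under the skin of 5-week-old male NOD SCID mice, which still have a mouse stroma and innate immune cells but lack mature lymphocytes. The mice received vehicle (Control), Palbociclib at 100 mg/kg/day, Telaglenastat at 150 mg/kg/day, or both drugs (Combination) by daily gavage for 23 days. Palbociclib inhibits the cyclin-dependent kinases CDK4 and CDK6, and Telaglenastat inhibits glutaminase, the enzyme that converts glutamine to glutamate. The tumor libraries numbered 3 Control, 5 Palbociclib, 4 Telaglenastat and 4 Combination, and 12 monolayer cultures, 3 for each treatment of the mouse, had been established from the tumors and grown without drug. All groups share the HCT116 origin and the host strain, and the tumor that gave rise to each culture is not recorded in the labels. The comparisons ask how the RNA of these genes differed with each treatment and whether a difference was also present in the drug-free cultures.

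mTOR is a kinase that couples growth factor and amino acid supply to protein synthesis, and it works in complexes set apart by their scaffold: raptor (RPTOR) in mTORC1 and rictor (RICTOR) in mTORC2. Growth factor signals reach mTORC1 through AKT, which inhibits the TSC1-TSC2 complex and so leaves the GTPase RHEB free to activate the kinase, while PRAS40 (AKT1S1) is an mTORC1 inhibitor that AKT also phosphorylates. Active mTORC1 phosphorylates the translational repressor 4E-BP1 (EIF4EBP1) and the ribosomal S6 kinase (RPS6KB1), and mTORC2 phosphorylates AKT itself. Glutamine is among the amino acids that feed mTORC1, and in colorectal carcinoma the pathway is often driven by mutations upstream of AKT. All of these steps act on proteins, whereas the values here are RNA levels only.

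The members differ widely in base composition, and the promoters of AKT1, RICTOR and RPS6KB1 are shown for their changes with Telaglenastat. As counted, these genes changed in different directions, and promoter and transcript composition part ways in RICTOR. The rises of RICTOR and RPS6KB1 did not pass after the correction for GC content and length explained below. Transcript GC content was highest in EIF4EBP1 (65.5%), TSC2 (60.5%), AKT1S1 (60.4%), RPTOR (59.8%) and AKT1 (58.7%), intermediate in MTOR (52.2%), TSC1 (48.5%) and RHEB (48.0%), and lowest in RPS6KB1 (38.2%) and RICTOR (36.5%). The windows run from 250 bases before to 50 bases after the transcription start in RefSeq (build GRCh38.p14), read 5′ to 3′ on the strand of the gene, and capitals mark the GC box letters GGGCGG or their reverse complement CCGCCC, which may overlap. They lie at chr14:104795699-104795998 (minus strand) for AKT1, at chr5:39074350-39074649 (minus strand) for RICTOR and at chr17:59892871-59893170 (plus strand) for RPS6KB1.
AKT1: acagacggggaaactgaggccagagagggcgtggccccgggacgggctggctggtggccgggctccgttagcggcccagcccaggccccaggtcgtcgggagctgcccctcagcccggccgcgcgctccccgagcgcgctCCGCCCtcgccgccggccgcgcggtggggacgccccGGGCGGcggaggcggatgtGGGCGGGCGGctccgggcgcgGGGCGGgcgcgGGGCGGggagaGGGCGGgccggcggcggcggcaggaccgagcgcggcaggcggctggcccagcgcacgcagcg
RICTOR: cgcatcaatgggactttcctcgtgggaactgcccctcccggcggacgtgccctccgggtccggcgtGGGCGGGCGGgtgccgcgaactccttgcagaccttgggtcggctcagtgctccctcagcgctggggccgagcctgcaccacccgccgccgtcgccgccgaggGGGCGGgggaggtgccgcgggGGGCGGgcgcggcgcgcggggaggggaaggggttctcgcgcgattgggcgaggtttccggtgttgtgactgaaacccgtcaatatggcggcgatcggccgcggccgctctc
RPS6KB1: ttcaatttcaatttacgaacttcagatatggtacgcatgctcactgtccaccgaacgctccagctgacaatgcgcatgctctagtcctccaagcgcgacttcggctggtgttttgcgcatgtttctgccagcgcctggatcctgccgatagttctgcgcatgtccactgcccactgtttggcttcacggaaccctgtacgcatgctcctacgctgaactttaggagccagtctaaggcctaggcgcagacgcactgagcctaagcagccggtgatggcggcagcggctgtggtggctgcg

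The AKT1 window shown had a GC content of 83.3%, higher than 99.3% of the 35116 RefSeq promoter windows of this length, and held 7 matches to the GC box. A second AKT1 window in the table, at chr14:104793552-104793851, had 56.7%, higher than 44.7% of windows, and 1 match. RICTOR, whose transcript is the poorest in GC of the 10, had a promoter GC content of 74%, higher than 88.5% of windows, with 4 matches. RPS6KB1 had 56.7% and no match in this window. A match was present in 45.0% of all windows, where the median GC content was 58.7%. In all, 8 members had 10 windows in the table, and AKT1S1 and EIF4EBP1 had no entry. The E-box letters CACGTG and the amino acid response element letters TGATGNAA, searched on both strands, were found among the members in a TSC2 window only, and occur in 7.26% and 3.62% of all windows. The E2F letters TTTCCCGC were found in no window of a member and in 1.63% of all windows. CCAAT letters stood in the windows of MTOR, RICTOR and RHEB and in 34.6% of all windows. These matches describe letters and not bound sites.

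Total counts ranged from 6273834 to 10617936 in the tumors and from 7198540 to 13815675 in the cultures. The libraries differed in how their counts depended on transcript GC content, and this dependence moved with the groups. It is expressed as the change in log2 CPM (the count of a gene scaled to a common library total), relative to the mean of the tumor or of the culture libraries, per SD of transcript GC content. Values of tumors and of cultures are thus not on a common scale. The dependence was 0.248 to 0.26 in the Control tumors, 0.0959 to 0.362 in the Palbociclib tumors, -0.286 to -0.159 in the Combination tumors and -0.387 to -0.303 in the Telaglenastat tumors. Among the cultures, Telaglenastat culture 2 stood apart at 0.422, whereas the other 11 lay between -0.132 and 0.178. Each result below is therefore given as counted and, where it changes, after removal of a smooth GC content and length trend from every library, called the correction. A change in RNA that itself follows GC content is removed by the correction as well, so a GC-linked change in the cells and one made in library preparation cannot be told apart. Epithelial markers were present in every group (5 or 6 of 8 above 1 CPM, CDX1 at 0 throughout) and summed to 1550 to 1710 CPM in the Telaglenastat tumors against 2620 to 3160 CPM in the Control tumors. KRT8 averaged 473 against 1130 CPM in these groups, KRT18 363 against 782, KRT19 114 against 453 and VIL1 0 against 1.84. EPCAM (487 against 395 CPM) and CDH1 (170 against 158 CPM) went the other way. Summed stromal markers (5 of 8 above 1 CPM in each tumor group, LUM at 0) were at 71.6 to 91.2 CPM in the Telaglenastat tumors, 147 to 226 CPM in the Combination tumors, 187 to 267 CPM in the Palbociclib tumors and 226 to 275 CPM in the Control tumors. Summed leukocyte markers were at 30.6 CPM or less in the tumors, with C1QA and TYROBP at 0, and endothelial markers at 2.57 CPM or less. The host tissue is mouse whereas the counts are of human genes, and whether mouse reads were removed is not given. The stromal, leukocyte and endothelial sums are therefore no direct measure of host cells. In bulk samples fewer cells of a type and less RNA per cell cannot be told apart, and the part of these markers in the results was not tested.

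Levels of the members were compared with each other as CPM per kilobase of transcript. In the Control tumors the highest levels were those of RHEB, at 42.3 ± 3.35 CPM per kb (SD, n = 3), and EIF4EBP1, at 34.7 ± 6.27, which did not differ beyond their spread. RPS6KB1 (22.4 ± 0.817) and AKT1 (21.2 ± 1.28) followed as a pair within their spread, then MTOR (10.2 ± 0.909), AKT1S1 (8.73 ± 1.3) and RICTOR (7.33 ± 0.6), each within the spread of the next. The lowest levels were those of TSC1 (5.10 ± 0.542), RPTOR (4.29 ± 0.827) and TSC2 (3.51 ± 0.478), each within the spread of its neighbour. In the Control cultures RHEB (76.5 CPM per kb) and RPS6KB1 (36.1) came first, and EIF4EBP1 (13.9 ± 5.07) and AKT1 (11.7 ± 2.70) lay beside MTOR (14.2 ± 0.318). In the Telaglenastat tumors RICTOR (11.5 CPM per kb) stood next after RHEB (54.6) and RPS6KB1 (32.1). EIF4EBP1 (6.87 ± 1.88) lay beside MTOR (8.32) and AKT1 (7.22), within its spread. These orders are as counted. The correction moved the mean of EIF4EBP1 from 35.4 to 19.7 CPM in the Control tumors. In the Telaglenastat tumors it moved EIF4EBP1 from 7.01 to 10.6 CPM and RICTOR from 110 to 87.4 CPM, so the orders need not hold after it. TSC2 was the lowest member in all 8 groups, at 1.37 to 4.05 CPM per kb.

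**Figure D1:**
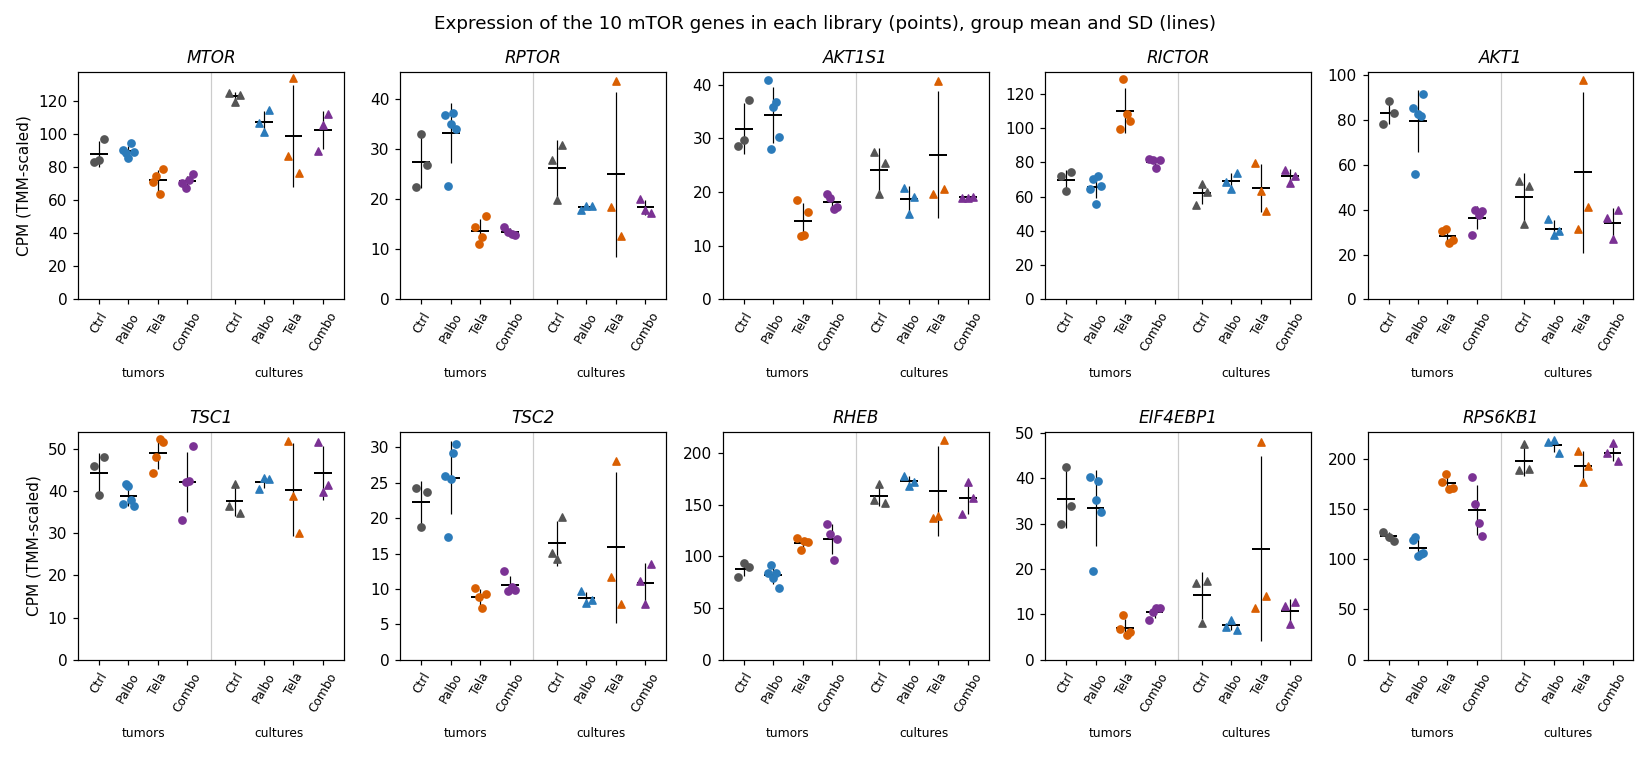
Level of each of the 10 genes in every library, in CPM (vertical axis of each panel, linear from 0), by treatment group; circles are tumors, triangles are cultures, and bars are group means ± SD. The 4 Telaglenastat tumors sit between 25.1 and 31.3 CPM for AKT1 and between 5.48 and 9.77 CPM for EIF4EBP1, below the Control tumors in both panels, and Telaglenastat culture 2 is the highest culture for both genes.

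No change of the 10 genes was called with Palbociclib alone in tumors. None passed the threshold (edgeR quasi-likelihood test, Benjamini-Hochberg adjusted p from 0.371 to 0.918), against 6.16% of all genes tested (2.55% higher and 3.6% lower). None had an unadjusted p under 0.05, for which no share of all genes is given, and DESeq2 called none at the adjusted threshold. After the correction none passed either, against 7.99% of all genes. RPTOR, the mTORC1 scaffold (chr17:80544819-80966371), had the largest estimate of the 10, a log2 fold change of 0.28 (SE 0.154, adjusted p = 0.371). It was at 22.5, 33.0 and 26.9 CPM in the Control tumors and at 36.9, 22.7, 35.0, 37.1 and 34 CPM in the Palbociclib tumors. Of the Palbociclib tumors 4 lay above every Control tumor and the other lay within their range. The other 9 estimates ran from -0.19 (TSC1) to 0.21 (TSC2). The 95% intervals on the log2 scale were narrow for MTOR (-0.139 to 0.194) and RHEB (-0.287 to 0.0843) and wider for RPTOR (-0.0433 to 0.599) and EIF4EBP1 (-0.464 to 0.316), and changes within the interval of a gene remain possible for it. The median over the 10 genes was -0.0685, beside 0.000672 over all genes tested.

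With Telaglenastat, 6 of the 10 genes were lower and 3 were higher in tumors, and the direction followed base composition. The genes that fell were AKT1, EIF4EBP1, RPTOR, AKT1S1, TSC2 and MTOR, those that rose were RICTOR, RPS6KB1 and RHEB, and TSC1 did not pass the test. Of all genes tested, 51.1% passed in this comparison (22.6% higher and 28.5% lower), so a majority of the table moved as well. Where groups are said not to overlap below, the share of all genes without overlap is not given. Such statements therefore do not set these genes apart from the rest. The median log2 fold change was -0.759 over the 10 genes and 0.0269 over all genes. After the correction 2 genes, AKT1 and EIF4EBP1, remained lower and none was higher, against 13.7% of all genes tested.

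AKT1, the kinase that carries growth factor signals to mTORC1 (chr14:104769349-104795751, minus strand), was at 78.3, 88.3 and 83.0 CPM in the Control tumors. In the Telaglenastat tumors it was at 30.5, 31.3, 25.1 and 26.3 CPM. The groups did not overlap, with every Telaglenastat tumor far below the lowest Control tumor. The log2 fold change was -1.66 (SE 0.144, adjusted p = 3.03e-08). After the correction AKT1 was at 51.9, 58.6 and 55.0 CPM in the Control tumors and at 35.4, 37.4, 32.7 and 31.7 CPM in the Telaglenastat tumors, still without overlap, with a log2 fold change of -0.69 (SE 0.0919, adjusted p = 3.16e-05). Leaving out each tumor in turn gave corrected values from -0.737 to -0.6447, all past the threshold. AL583722.2, an antisense gene, shares 5.94% of the exon bases of AKT1, and reads of such a partner can be told apart only if strand was used in counting, which is not given in the sources used here.

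EIF4EBP1, which encodes the translational repressor 4E-BP1 (chr8:38030341-38060365), showed the largest fall of the 10. It was at 29.9, 42.4 and 33.8 CPM in the Control tumors and at 6.79, 9.77, 5.48 and 6.01 CPM in the Telaglenastat tumors. No Telaglenastat tumor came near the Control range. The log2 fold change was -2.43 (SE 0.223, adjusted p = 5.03e-08), and -0.86 (SE 0.168, adjusted p = 0.00141) after the correction. The corrected values were 16.6, 23.2 and 19.2 CPM in the Control tumors and 10.2, 14.5, 8.75 and 9.15 CPM in the Telaglenastat tumors, so the groups stayed apart by a narrower margin. The other substrate, RPS6KB1, the S6 kinase gene (chr17:59893046-59950564), moved the opposite way as counted, from 127.5, 122.5 and 118.6 CPM to 177.2, 184.9, 170.0 and 170.6 CPM. Its groups did not overlap, and the log2 fold change was 0.41 (SE 0.094, adjusted p = 0.00123). After the correction it was 0.02 (adjusted p = 0.935).

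Among the subunits, RPTOR was at 14.5, 11, 12.4 and 16.7 CPM in the Telaglenastat tumors, all below the Control tumors. Its log2 fold change was -1.12 (SE 0.17, adjusted p = 2.01e-05) as counted and -0.03 (adjusted p = 0.932) after the correction. AKT1S1 (chr19:49869033-49878459, minus strand) was at 28.5, 29.6 and 37.2 CPM in the Control tumors and at 18.6, 11.9, 12.1 and 16.2 CPM in the Telaglenastat tumors. This gene, which encodes the mTORC1 inhibitor PRAS40, had a log2 fold change of -1.22 (SE 0.159, adjusted p = 3.22e-06), and of -0.10 (adjusted p = 0.74) after the correction, without overlap between the groups as counted. It shares 6.83% of its exon bases with TBC1D17 on the opposite strand, and its counts are uncertain to that extent. MTOR, the kinase itself (chr1:11106535-11262507, minus strand), was at 83.5, 84.2 and 97.5 CPM in the Control tumors and at 71.2, 74.5, 63.8 and 79.1 CPM in the Telaglenastat tumors. The MTOR groups lay close but did not overlap, with a log2 fold change of -0.40 (SE 0.0848, adjusted p = 0.000607), and of -0.17 (adjusted p = 0.13) after the correction.

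RICTOR, the mTORC2 scaffold (chr5:38937919-39074408, minus strand), rose as counted. It was at 71.7, 63.5 and 74.5 CPM in the Control tumors and at 99.2, 128.8, 108.1 and 103.8 CPM in the Telaglenastat tumors. Every Telaglenastat tumor was above every Control tumor. The log2 fold change was 0.55 (SE 0.098, adjusted p = 0.000119), and 0.13 (adjusted p = 0.391) after the correction. RICTOR shares 1.69% of its exon bases with OSMR on the opposite strand.

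Of the TSC complex, which holds RHEB inactive, TSC2 (chr16:2047465-2089487) fell as counted and TSC1 (chr9:132891348-132946874, minus strand) did not pass the test. TSC2 was at 24.3, 18.8 and 23.7 CPM in the Control tumors and at 10.1, 8.79, 7.36 and 9.31 CPM in the Telaglenastat tumors. These groups did not overlap, and the log2 fold change of -1.43 (SE 0.178, adjusted p = 1.8e-06) became -0.28 (adjusted p = 0.207) after the correction. TSC1 was at 39.1 to 48.2 CPM and 44.2 to 52.3 CPM in the same groups, a log2 fold change of 0.04 (SE 0.12, adjusted p = 0.825). RHEB (chr7:151466012-151520120, minus strand), the GTPase that activates mTORC1, was at 80.3, 94.0 and 89.3 CPM in the Control tumors and at 117.9, 106.5, 115.1 and 113.8 CPM in the Telaglenastat tumors. It rose without overlap by a log2 fold change of 0.26 (SE 0.0937, adjusted p = 0.0259). The call was lost without Control tumor 1 (adjusted p = 0.135), without Control tumor 3 (0.0524), without Telaglenastat tumor 1 (0.0667) and after the correction (0.20, adjusted p = 0.139). The RHEB pseudogenes RHEBP1 and RHEBP2 held 269 and 120 counts over all 28 libraries, and reads shared with them are uncertain.

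**Figure D2:**
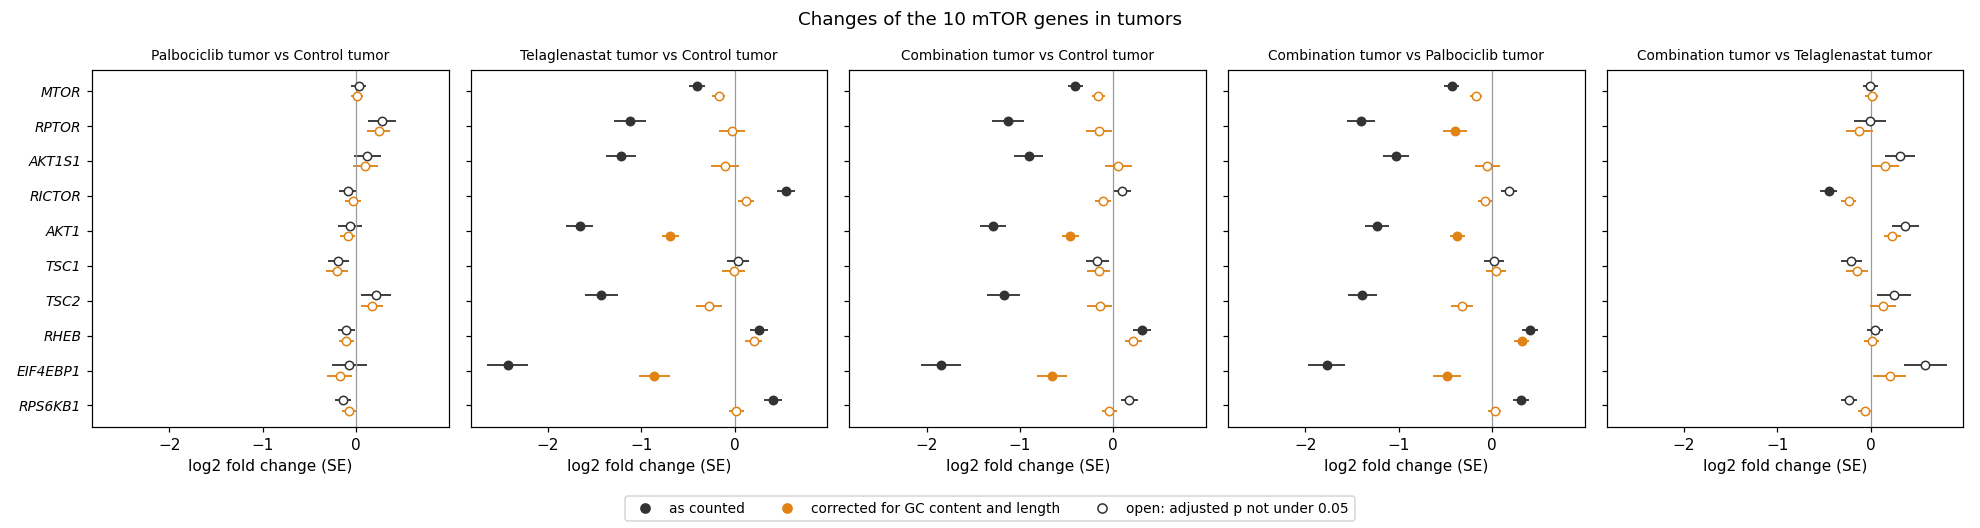
Log2 fold change ± SE of each of the 10 genes in the 5 tumor comparisons, as counted (dark) and after the GC content and length correction (orange), with open symbols where the adjusted p was not under 0.05. AKT1 and EIF4EBP1 stay filled on both scales in Telaglenastat against Control (-1.66 and -0.69, and -2.43 and -0.86), whereas RPTOR moves from -1.12 to -0.03.

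Across the 10 genes the log2 fold change with Telaglenastat fell with transcript GC content (Pearson r = -0.937 over the 10 members, beside -0.679 over all genes). After the correction r was -0.689 over the members and -0.0589 over all genes, so the corrected changes of the members still followed GC content. These points come from the same libraries and are given as a description. Set against the genes of their own 2-point GC interval, 7 members lay between the quartiles. AKT1 (-1.66) lay below the lower quartile of -1.38 of 884 genes, where the median was -1.03. EIF4EBP1 (-2.43) lay below the lower quartile of -2.12 of 415 genes, where the median was -1.66, and RICTOR (0.55) lay above the upper quartile of 0.507 of 721 genes, where the median was 0.407. RPTOR, TSC2, AKT1S1, MTOR, TSC1, RHEB and RPS6KB1 were the members that lay within the quartiles of transcripts of like composition. RHEB, at 48.0% GC, stood at the edge of its interval. Its value of 0.26 was above the upper quartile of 0.2458 of the next interval, so its place is uncertain.

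**Figure D3:**
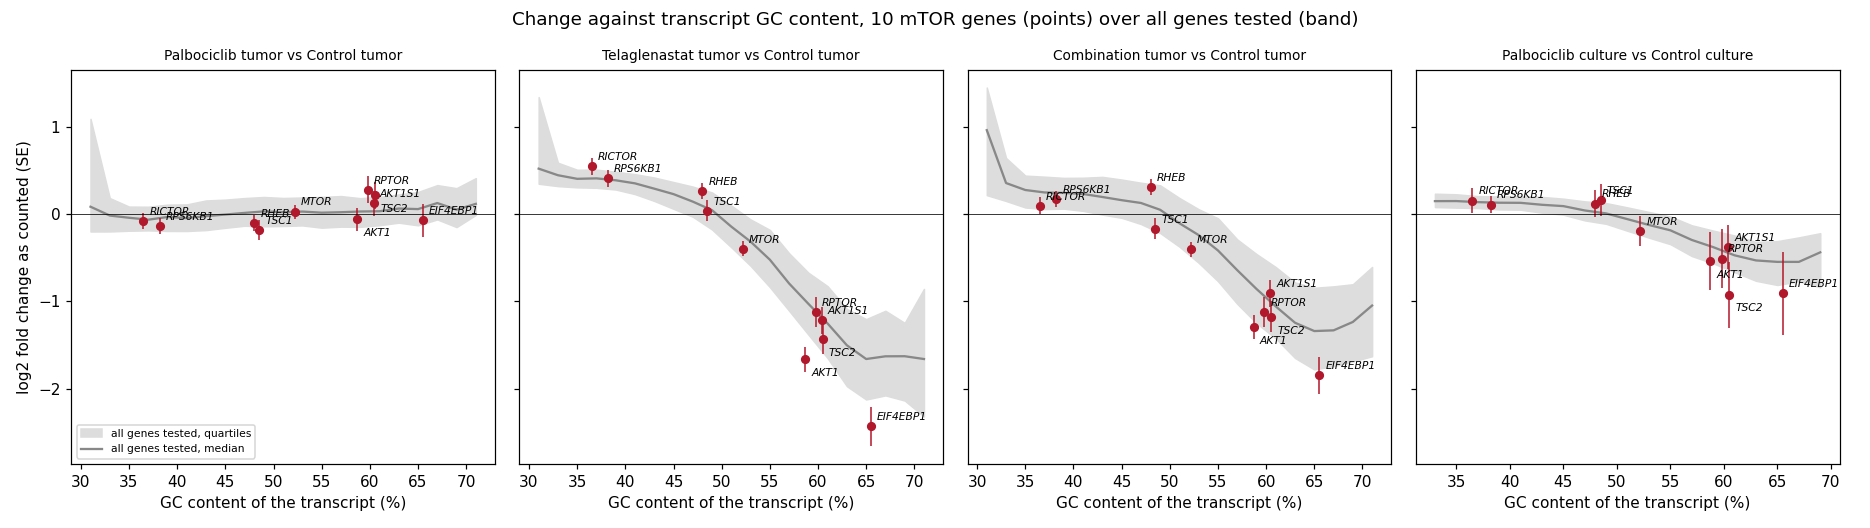
Log2 fold change of the 10 genes (labelled points) against transcript GC content in percent, over the median and quartile band of all genes tested in 2-point GC intervals, for 3 tumor comparisons with Control and for Palbociclib cultures against Control cultures. With Telaglenastat the band falls from left to right and AKT1 and EIF4EBP1 lie below it, at -1.66 and -2.43.

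The Combination tumors showed the same group of lower genes against the Control tumors, with smaller estimates for AKT1 and EIF4EBP1 than under Telaglenastat alone. The genes AKT1, EIF4EBP1, TSC2, RPTOR, AKT1S1 and MTOR were lower, RHEB was higher, and RICTOR, TSC1 and RPS6KB1 did not pass the test. This comparison and the previous ones share the Control tumors. Of all genes 44.5% passed (17.6% higher and 26.9% lower), and the median was -0.657 over the 10 genes beside -0.0362 over all. AKT1 was at 28.7, 39.8, 37.5 and 39.3 CPM in the Combination tumors, all below the Control tumors, with a log2 fold change of -1.29 (SE 0.141, adjusted p = 5.71e-07). EIF4EBP1 was at 8.70, 10.5, 11.5 and 11.3 CPM, again without overlap, with -1.85 (SE 0.214, adjusted p = 1.06e-06). After the correction these values were -0.46 (SE 0.09, adjusted p = 0.000761) and -0.66 (SE 0.16, adjusted p = 0.00441), and AKT1 and EIF4EBP1 were the only members past the threshold, against 26% of all genes tested.

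RPTOR was at 14.4, 13.5, 13.1 and 12.9 CPM in the Combination tumors, a log2 fold change of -1.13 (SE 0.171, adjusted p = 2.24e-05) as counted and of -0.15 (adjusted p = 0.478) after the correction. TSC2 was at 12.5, 9.76, 10.2 and 9.86 CPM (-1.18, SE 0.176, adjusted p = 1.93e-05, and -0.14, adjusted p = 0.478, after the correction). For both genes the Combination tumors lay below every Control tumor. AKT1S1 had a log2 fold change of -0.91 (SE 0.157, adjusted p = 9.4e-05) as counted and turned to 0.05 (adjusted p = 0.834) after the correction. MTOR was lower by -0.41 (SE 0.0849, adjusted p = 0.000611), and by -0.16 (adjusted p = 0.112) after the correction. RHEB was at 131.8, 121.3, 96.8 and 117.3 CPM, all above the Control tumors, with a log2 fold change of 0.31 (SE 0.0937, adjusted p = 0.0114). It lost the call without Control tumor 1 (adjusted p = 0.0735) and after the correction (0.21, adjusted p = 0.0795). RICTOR (0.09, adjusted p = 0.467), RPS6KB1 (0.17, adjusted p = 0.145) and TSC1 (-0.17, adjusted p = 0.269) did not pass.

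Against the Palbociclib tumors, which asks what Telaglenastat added to Palbociclib, the Combination tumors had 6 members lower and 2 higher, where 47.6% of all genes passed (20.1% higher and 27.5% lower). The median was -0.732 over the 10 genes and 0.0161 over all. After the correction 3 members were lower (RPTOR, AKT1 and EIF4EBP1) and 1 was higher (RHEB), against 14.7% of all genes. AKT1 had been at 85.3, 55.8, 82.6, 81.5 and 91.6 CPM in the Palbociclib tumors, without overlap with the Combination tumors. Its log2 fold change was -1.23 (SE 0.128, adjusted p = 2.62e-07), and -0.37 (SE 0.0811, adjusted p = 0.00332) after the correction. RHEB had been at 83.8, 91.2, 79.5, 83.8 and 69.3 CPM, all below the Combination tumors, and rose by 0.41 (SE 0.082, adjusted p = 0.000415), or 0.32 (SE 0.0771, adjusted p = 0.00743) after the correction. The corrected calls of AKT1 and RHEB held in each of 9 fits without a tumor. EIF4EBP1 had been at 40.3, 19.6, 35.3, 39.4 and 32.5 CPM and fell by 1.77 on the log2 scale (SE 0.197, adjusted p = 5.23e-07). RPTOR fell by 1.41 on the log2 scale (SE 0.154, adjusted p = 4.55e-07). The corrected values of EIF4EBP1 (-0.48, SE 0.146, adjusted p = 0.0292) and RPTOR (-0.40, SE 0.126, adjusted p = 0.039) lost the call in 6 and 7 of these 9 fits. RPTOR kept it without Palbociclib tumor 2 or Combination tumor 1, and EIF4EBP1 without Palbociclib tumor 2, 3 or 5. TSC2 (-1.39), AKT1S1 (-1.03) and MTOR (-0.43) were lower and RPS6KB1 (0.31, adjusted p = 0.00413) was higher as counted only, and RICTOR (0.18, adjusted p = 0.0961) and TSC1 (0.02) did not pass.

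Between the Combination and the Telaglenastat tumors, 1 member differed, RICTOR, where 18.8% of all genes passed (8.93% higher and 9.89% lower). RICTOR was at 81.6, 81.0, 76.5 and 81.2 CPM in the Combination tumors, all below the 99.2 to 128.8 CPM of the Telaglenastat tumors. The log2 fold change was -0.45 (SE 0.0907, adjusted p = 0.00147), and -0.23 (adjusted p = 0.0533) after the correction. EIF4EBP1 (0.59, adjusted p = 0.0883), AKT1 (0.37, adjusted p = 0.078) and RPS6KB1 (-0.24, adjusted p = 0.0637) did not pass, and their 95% intervals were 0.0982 to 1.08, 0.0716 to 0.668 and -0.416 to -0.0544 on the log2 scale. These differences lay near the threshold. AKT1 and EIF4EBP1 passed with DESeq2 (adjusted p = 0.0421 and 0.045), AKT1 and RPS6KB1 passed without Combination tumor 1 (adjusted p = 0.0186 and 0.00949), and EIF4EBP1 passed without Telaglenastat tumor 2 (adjusted p = 0.0324).

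The scaffolds RICTOR and RPTOR define the mTOR complexes, and their ratio within a library does not depend on the library total. The log2 ratio of RICTOR to RPTOR was 1.67, 0.942 and 1.47 in the Control tumors and 0.809, 1.64, 0.673, 0.955 and 0.956 in the Palbociclib tumors. It was 2.78, 3.55, 3.13 and 2.64 in the Telaglenastat tumors and 2.5, 2.58, 2.55 and 2.65 in the Combination tumors. As counted, every tumor that received Telaglenastat lay above every tumor that did not. After the correction the ratios overlapped across the 4 groups, at 1.88 to 2.54 in the Control, 1.69 to 2.15 in the Palbociclib, 2.07 to 2.93 in the Telaglenastat and 2.07 to 2.45 in the Combination tumors. The log2 ratio of TSC1 to TSC2 was 0.92 to 1.06 in the Control, 0.258 to 1.27 in the Palbociclib, 2.13 to 2.83 in the Telaglenastat and 1.41 to 2.36 in the Combination tumors as counted, again with every tumor that received Telaglenastat above the rest. After the correction it was 1.64 to 1.78, 1.12 to 1.57, 1.71 to 2.22 and 0.953 to 2.14. The TSC1 to TSC2 ratio of the Palbociclib tumors overlapped that of the Control tumors as counted. Unlike the ratio of the scaffolds, it lay below that of the Control and the Telaglenastat tumors after the correction. The corrected ratio of the Combination tumors overlapped all of them, and the ratios were not tested. In the cultures the corrected ratio of RICTOR to RPTOR lay between 1.06 and 1.71.

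**Figure D4:**
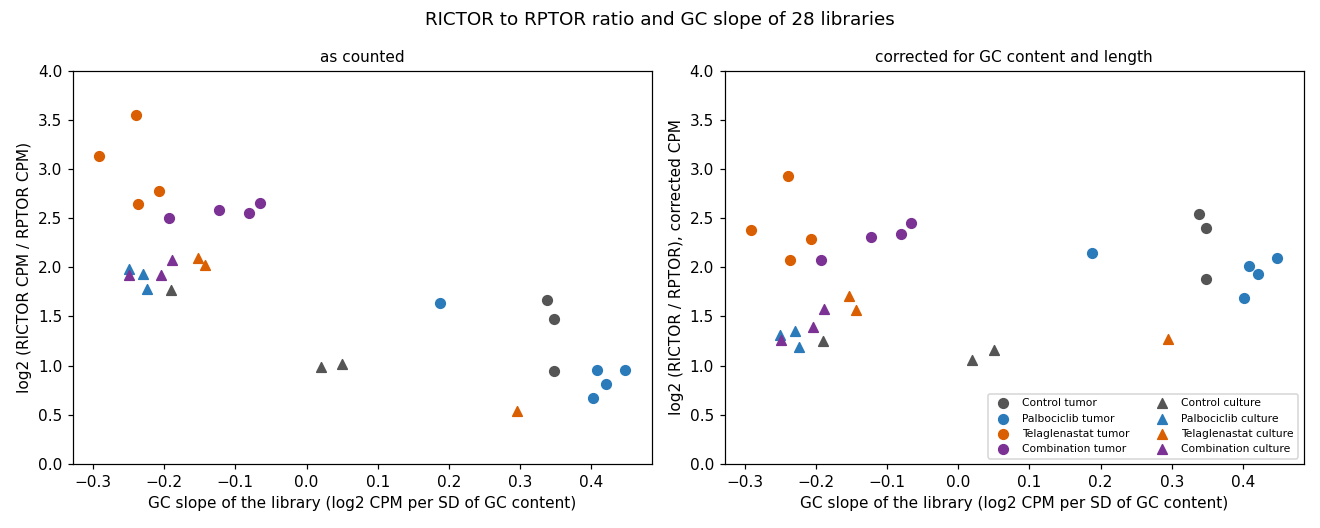
Log2 ratio of RICTOR to RPTOR (vertical axis) in each of the 28 libraries against the GC slope of the library (horizontal axis, change in log2 CPM per SD of transcript GC content, from all 28 libraries), as counted and after the correction, with circles for tumors and triangles for cultures. As counted the Telaglenastat tumors stand at 2.64 to 3.55 and the Control tumors at 0.942 to 1.67, and after the correction the tumor groups overlap.

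In the drug-free cultures no member passed the threshold between treatments of origin. Almost no other gene did, so the lack of calls is not particular to these genes. None of the 10 genes passed in any of the 5 comparisons with edgeR or with DESeq2, and 1, 0, 0, 0 and 2 members had an unadjusted p under 0.05 in Palbociclib, Telaglenastat and Combination against Control, Combination against Palbociclib and Combination against Telaglenastat. At the adjusted threshold the background was 0% of all genes in 4 of these comparisons and 0.00715% in Combination against Control. No share of all genes is given at the unadjusted one. The median log2 fold changes of the 10 genes against the Control cultures were -0.288 with Palbociclib, 0.0389 with Telaglenastat and -0.304 with the Combination. TSC2 was at 15, 14.2 and 20.1 CPM in the Control cultures and at 9.63, 7.98 and 8.41 CPM in the Palbociclib cultures, without overlap, yet its log2 fold change of -0.92 had an adjusted p of 0.795. The 95% interval of that value ran from -1.74 to -0.111, so a sizeable difference lies within it.

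Telaglenastat culture 2 decided several of the culture estimates. EIF4EBP1 was at 16.9, 8.19 and 17.4 CPM in the Control cultures and at 11.4, 48.0 and 14 CPM in the Telaglenastat cultures, and AKT1 was at 52.8, 33.5 and 50.7 CPM and at 31.2, 97.6 and 41.1 CPM. For both genes culture 2 was above every other culture, and the other Telaglenastat cultures lay within or just below the Control range. The log2 fold change against Control was 0.79 (adjusted p = 0.811) for EIF4EBP1 and 0.30 for AKT1 with this library, and -0.17 and -0.35 without it. RPTOR (-0.07 with it and -0.75 without it, adjusted p = 0.153 without it), TSC2 (-0.05 and -0.74, adjusted p = 0.23 without it) and MTOR (-0.32 and -0.60, adjusted p = 0.074 without it) moved downward. No member passed in the cultures without it either. Combination against Telaglenastat cultures gave -1.18 (adjusted p = 0.323) for EIF4EBP1 and -0.72 for AKT1, and -0.23 and -0.08 without it.

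Control tumors and Control cultures differed in 5 of the 10 genes, of which 2 were higher in tumors (AKT1 and EIF4EBP1) and 3 lower (MTOR, RHEB and RPS6KB1), beside 45.9% of all genes (23.1% higher and 22.8% lower). RHEB was at 80.3, 94.0 and 89.3 CPM in the Control tumors and at 154.2, 170.5 and 151.3 CPM in the Control cultures, a log2 fold change of -0.85 (SE 0.132, adjusted p = 7.48e-06). RPS6KB1 was at 118.6 to 127.5 CPM in the tumors and at 188.8, 214.6 and 189.5 CPM in the cultures (-0.69, SE 0.104, adjusted p = 5.49e-06), and MTOR was at 83.5 to 97.5 CPM against 125, 119.9 and 124.2 CPM (-0.48, SE 0.132, adjusted p = 0.00414). The groups did not overlap in these genes, again without a share of all genes beside it. The 3 calls held after the correction, at -0.74, -0.44 and -0.82. AKT1 (0.87, SE 0.259, adjusted p = 0.00758) and EIF4EBP1 (1.32, SE 0.366, adjusted p = 0.00421) were higher in tumors as counted, and at 0.22 (adjusted p = 0.229) and 0.45 (adjusted p = 0.0845) after the correction. AKT1 also lost the call without Control culture 2 (adjusted p = 0.0626). After the correction 6 members passed, 1 higher and 5 lower, against 41% of all genes. RPTOR passed there (0.07 as counted, -0.76 after the correction, adjusted p = 0.000153), as did TSC2 (0.44 and -0.44, adjusted p = 0.0318) and RICTOR (0.18 and 0.34, adjusted p = 0.005), and the direction of RPTOR and TSC2 thus depended on the correction. Tissue context, culture and the counts on stromal marker genes, which summed to 226 to 275 CPM in these tumors and 11.4 to 31.5 CPM in these cultures, cannot be told apart here.

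The drug effects in tumors and in cultures were then compared directly by the difference of the log2 fold changes. For Telaglenastat, 7 members differed, 2 with a more positive and 5 with a more negative effect in tumors, beside 34.1% of all genes (15.6% and 18.5%). The differences were -3.14 for EIF4EBP1 (SE 0.513, adjusted p = 0.000148), -1.88 for AKT1 (SE 0.358, adjusted p = 0.000454), -1.30 for TSC2 (adjusted p = 0.0137), -1.28 for AKT1S1 (adjusted p = 0.00192), -0.96 for RPTOR (adjusted p = 0.0492), 0.59 for RICTOR (adjusted p = 0.00975) and 0.55 for RPS6KB1 (adjusted p = 0.00404). The RPTOR call was lost in 8 of 13 fits that left out a library (Control tumor 2 or 3, Telaglenastat tumor 1, 2 or 3, Control culture 1 or 2, or Telaglenastat culture 2). After the correction AKT1 (-0.86, SE 0.199, adjusted p = 0.0133) and EIF4EBP1 (-1.25, SE 0.296, adjusted p = 0.0155) passed, against 3.72% of all genes. Without Telaglenastat culture 2, 5 members passed as counted (background 21.2%), with EIF4EBP1 at -2.17 (adjusted p = 0.000489) and AKT1 at -1.22 (adjusted p = 0.00175), whereas RPTOR (-0.27, adjusted p = 0.538) and TSC2 (-0.58, adjusted p = 0.183) did not. Without that culture and with the correction none passed, and AKT1 was at -0.62 (adjusted p = 0.0873) and EIF4EBP1 at -0.89 (adjusted p = 0.0981). Past the threshold, a difference between tumors and cultures in these genes was thus seen with that library or with the uncorrected counts, and not without both.

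For Palbociclib and for the Combination no member passed this test with edgeR or DESeq2, where 1.39% (0.356% higher and 1.03% lower) and 2.91% (2.11% higher and 0.795% lower) of all genes passed with edgeR. An unadjusted p under 0.05, for which no share of all genes is given, was found in 2 and 3 members. EIF4EBP1 (-1.35, 95% interval -2.41 to -0.297) and AKT1 (-0.77, 95% interval -1.51 to -0.0372) had the most negative differences for the Combination. TSC2 had the most positive difference for Palbociclib, at 1.13 (adjusted p = 0.168).

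**Figure D5:**
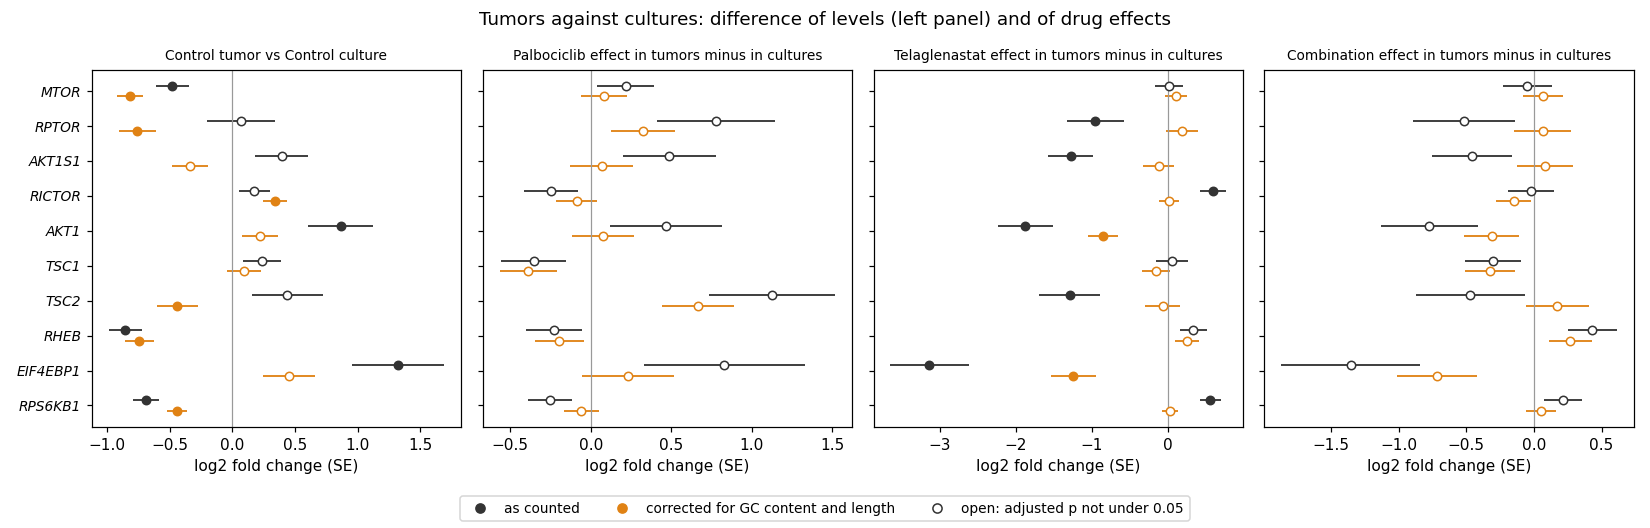
Log2 differences ± SE of the 10 genes between Control tumors and Control cultures and, for each treatment, between its effect in tumors and its effect in cultures, as counted (dark) and corrected (orange), with open symbols where the adjusted p was not under 0.05. RHEB, RPS6KB1 and MTOR are lower in tumors on both scales, and the Telaglenastat difference is most negative for EIF4EBP1 (-3.14) and AKT1 (-1.88).

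Of 76 further pathway genes, 74 were tested in tumors. With Telaglenastat 19 were higher and 28 lower as counted, and 6 and 7 after the correction, beside 51.1% of all genes as counted and 13.7% after the correction. Complex subunits and assembly factors had 0 higher and 3 lower of 7, Rag, Ragulator and folliculin genes 4 and 4 of 13, GATOR, KICSTOR and amino acid sensor genes 5 and 8 of 16, PI3K, AKT and energy inputs 6 and 5 of 20, and substrates and effectors 4 and 8 of 18. The median over these genes was -0.0725. LAMTOR4, a subunit of the Ragulator that anchors Rag GTPases at the lysosome, averaged 2.73 CPM in the Telaglenastat and 13 CPM in the Control tumors, a log2 fold change of -2.36 (SE 0.253, adjusted p = 2.74e-07) and of -1.18 (adjusted p = 0.002) after the correction. NPRL3, of the GATOR1 complex that restrains Rag GTPases, averaged 2.68 CPM against 10.4 CPM and had -2.05 and -0.83 (adjusted p = 0.0155 after the correction). TELO2, an assembly factor of mTOR complexes, averaged 1.4 CPM against 6.51 CPM. It had -2.32 as counted, but its corrected value of -0.82 did not pass (adjusted p = 0.151). The levels of these named genes were low in the Telaglenastat tumors.

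In the Combination tumors 11 of the 74 genes were higher and 28 lower than in Control, and 7 and 10 after the correction, beside 44.5% and 26% of all genes. KPTN, a KICSTOR subunit, averaged 1.49 CPM against 6.3 CPM in Control (-2.16, adjusted p = 1.62e-05, and -1.17 corrected, adjusted p = 0.00445). LAMTOR2, of the Ragulator, averaged 4.1 CPM against 13.3 CPM (-1.78, adjusted p = 1.64e-05, and -1.14 corrected, adjusted p = 0.0012). Both falls held after the correction, at low levels in the Combination tumors. Against the Palbociclib tumors 18 were higher and 28 lower, and 4 and 9 after the correction, beside 47.6% and 14.7% of all genes. Against the Telaglenastat tumors 7 were higher and 9 lower, beside 18.8% of all genes, among them INPP4B, a phosphatase of the PI3K pathway, which averaged 214 CPM against 320 CPM (-0.58, adjusted p = 4.76e-05, and -0.37 corrected, adjusted p = 0.00097). FNIP2, a folliculin partner, was also lower there (-0.65, adjusted p = 0.00957), and SESN2, a leucine sensor, was higher as counted (0.63, adjusted p = 0.0287) but not after the correction (adjusted p = 0.0694).

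With Palbociclib 2 of the 74 pathway genes rose and 2 fell in tumors, beside 6.16% of all genes. FNIP2 averaged 8.62 CPM against 13.9 CPM in Control (-0.69, adjusted p = 0.0146), LPIN1, a lipid phosphatase regulated by mTORC1, 19.8 CPM against 29.4 CPM (-0.57, adjusted p = 0.00478), and SESN3, a sestrin, 28.2 CPM against 19.6 CPM (0.53, adjusted p = 0.016). All 3 also passed after the correction. Between Control tumors and Control cultures 13 were higher and 14 lower, beside 45.9% of all genes. Higher in tumors on both scales were DDIT4, an inhibitor of mTORC1 induced by stress (241 CPM against 85.3 CPM, 1.5, adjusted p = 6.32e-05), PIK3R2, a regulatory subunit of PI3K (2.01, adjusted p = 7.71e-05), and SGK1, a kinase phosphorylated by mTORC2 (1.02, adjusted p = 0.0347).

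Over the means of the 8 groups, the genes whose pattern was most like that of RPTOR, by Pearson r of log2 CPM among 15465 other genes, were HGS (0.992), PIEZO1 (0.992) and HIP1R (0.99), with transcript GC contents of 62.7% to 64.3%. For RICTOR they were SENP7 (0.993), CTNND1 (0.981) and ZKSCAN8 (0.978), and for MTOR PFAS (0.981), MCM3AP (0.978) and HAUS8 (0.971). After the correction none of these 9 genes was among the nearest 3, which became POLR3A, KIAA0922 and PFKM for RPTOR, RAB7B, SYNM and RAD51B for RICTOR, and CHUK, OTUD6B and ABCF2 for MTOR. The groups share libraries and controls, and with 8 points such values are a description.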

How the data were processed

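RNA was measured in 16 tumor and 12 culture libraries. Poly(A) RNA was sequenced and the authors deposited raw read counts per gene, made with STAR. The submitters' processing notes name hg38. STAR version, annotation release and strand setting are not given in the sources used here, nor is whether mouse reads were removed. By gene ID, 57940 of 58278 genes matched GENCODE 29 (0.0287% of counts did not), which gave coordinates, GC content and length of the longest protein-coding transcript.

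Samples were grouped by their labels. Counts were tested in edgeR 4.0.16 (R 4.3.3; TMM scaling, filterByExpr with a minimum count of 10, quasi-likelihood test, two-sided, Benjamini-Hochberg adjusted p under 0.05), with group means of the tumors (14848 genes), of the cultures (13985 genes), or of all 28 libraries (15466 genes) for contrasts of tumors with cultures. CPM values are TMM-scaled over 28 libraries. The correction fitted, per library, natural splines of GC content (5 df) and log2 length (4 df) by robust regression (MASS 7.3.60.0.1) to log2 CPM deviations (prior count 2) and used the fit as an offset. Scripts were tested on simulated data. DESeq2 1.42.0, other filters, scalings, corrections, a replicate block and leaving out each library were alternatives.

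All 10 genes are described, beside lists of 76 pathway genes from general knowledge. Of the list genes, up to 3 per comparison are named, those past the threshold with the largest change and a mean of at least 5 CPM in a compared group. The 10 genes, the lists and the added corrections were chosen with earlier results of these data known. Where the labels do not say that samples came from separate mice or cultures, p-values measure only the spread between these samples, which may be technical. No 2 libraries of the same group agreed within sampling noise (chi-square per degree of freedom at least 4.02), and pairs from different groups were not examined. A further overlap of a member with another gene is not reported here.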

Additional observations from a re-analysis of the deposited data

Results flagged for a closer look

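Single tumors stood apart from their group in 3 of 30 combinations of gene and group examined, by a gap to the nearest tumor on the log2 scale that was large for the range of the group. RPTOR was at 22.7 CPM in Palbociclib tumor 2, where the other 4 Palbociclib tumors were at 34 to 37.1 CPM (gap over range 0.82). AKT1 was at 55.8 CPM in the same tumor, where the others were at 81.5 to 91.6 CPM (0.766). This tumor had a GC slope of 0.0959, below the 0.314 to 0.362 of the other Palbociclib tumors, and the part of that in these values was not tested. RICTOR was at 76.5 CPM in Combination tumor 3, where the others were at 81 to 81.6 CPM (0.894), a difference of a few CPM. Chance alone flags about 1 in 20 groups.

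The effect of Telaglenastat differed between tumors and cultures in 7 genes by the test of the difference itself in edgeR. The log2 differences were -3.137 for EIF4EBP1 (adjusted p = 0.000148), -1.878 for AKT1 (adjusted p = 0.000454), -1.295 for TSC2 (adjusted p = 0.0137), -1.283 for AKT1S1 (adjusted p = 0.00192), -0.9588 for RPTOR (adjusted p = 0.0492), 0.5871 for RICTOR (adjusted p = 0.00975) and 0.5541 for RPS6KB1 (adjusted p = 0.00404). After the GC content and length correction AKT1 and EIF4EBP1 passed, and without Telaglenastat culture 2 as well none did.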

How the results depend on the processing

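Counts below are numbers of the 10 genes past the threshold, and other values are log2 differences. The share of all genes past the threshold moved with the setting as well. In Telaglenastat against Control tumors it was 51.1% as counted and 13.7% with the correction. Shares for the other settings are not given in this section, so the counts do not set these genes apart from the rest. In each set of 4 values the settings are the GC content and length correction, that correction with a replicate block, GC content without length, and GC content by length interaction. The counts became 2, 2, 2 and 2 in Telaglenastat against Control tumors (9 as counted), 2, 2, 3 and 2 in Combination against Control (7), 4, 3, 5 and 5 in Combination against Palbociclib (8), and 2, 2, 2 and 2 for the Telaglenastat effect in tumors minus in cultures (7). Estimates that turned were RPS6KB1 (-0.04264, -0.01533, -0.0659 and -0.03487) and AKT1S1 (0.053, 0.0541, 0.05499 and 0.05879) in Combination against Control tumors, and RICTOR in Combination against Palbociclib (-0.07433, -0.05673, -0.1364 and -0.08314). Between Control tumors and Control cultures they were TSC2 (-0.4381, -0.2571, -0.2996 and -0.4086), RPTOR (-0.7565, -0.7329, -0.6199 and -0.7279) and AKT1S1 (-0.338, -0.2477, -0.335 and -0.35). For the Telaglenastat effect in tumors minus in cultures they were RPTOR (0.1784, 0.1691, 0.2608 and 0.08236), TSC2 (0.009222 with GC content alone) and RICTOR (-0.006892 with the block and the correction). The cause was not tested. Combination against Telaglenastat tumors, with 1 gene as counted, had 3 with DESeq2, 4 without a filter, 2 with at least 10 counts in every library, 2 in a fit of these groups alone, and 0 with the correction, with the block and the correction, and with the interaction. Without a filter, 2 genes passed in Combination against Telaglenastat cultures, 1 in the Palbociclib and 2 in the Combination effect in tumors minus in cultures, where none passed otherwise.

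Replicate numbers did not pair the libraries among the tumors or among the cultures, since correlations of same-numbered libraries ran from -0.423 to 0.14. Pairs of a tumor and a culture were not examined. The tests of tumors against cultures treat all libraries as independent, although the cultures came from such tumors. With a replicate block the count was 2 in Combination against Telaglenastat tumors and 3, in place of 5, between Control tumors and cultures.

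Leaving out each library in turn, as counted and for the tumor comparisons also with the correction, gave 2 (corrected) to 9 genes in Telaglenastat against Control tumors, 2 (corrected) to 8 in Combination against Control, 2 (corrected) to 8 in Combination against Palbociclib, 0 (corrected) to 3 in Combination against Telaglenastat, 0 (corrected, without Telaglenastat culture 2) to 8 for the Telaglenastat effect in tumors minus in cultures, 4 to 5 between Control tumors and cultures, and 0 in the others. Of the estimates past the threshold under any setting, RPTOR between Control tumors and cultures changed sign as counted, with a range of -0.09745 to 0.2028. With the correction others did, and their ranges over both kinds of fit were -1.361 to 0.02662 (AKT1S1), -0.008808 to 0.4369 (RPS6KB1) and -1.243 to 0.1334 (RPTOR) in Telaglenastat against Control, -0.9792 to 0.1786 (AKT1S1), -0.1193 to 0.2462 (RPS6KB1) and -1.252 to 0.01007 (RPTOR) in Combination against Control, -1.095 to 0.00564 (AKT1S1), -0.04496 to 0.3842 (RPS6KB1) and -0.1239 to 0.2163 (RICTOR) in Combination against Palbociclib, and -0.3153 to 0.006006 (RPS6KB1) in Combination against Telaglenastat. They were -1.52 to 0.1048 for EIF4EBP1 in Combination against Telaglenastat cultures, and -1.272 to 0.3936 (RPTOR) and -1.612 to 0.1379 (TSC2) for the Telaglenastat effect in tumors minus in cultures.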
